A study of Mus musculus with 19 samples.

Results

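The immunoglobulin heavy chain constant genes encode the part of an antibody that sets its class, or isotype. Described here are 8 of the 27179 genes in the expression table, taken by symbol: Ighm, Ighd, Ighg1, Ighg2b, Ighg2c, Ighg3, Igha and Ighe. The RNA came from spleen cells of 19 mice of the FCG cross (4 core genotypes), in which gonad and sex chromosomes are inherited apart because the testis-determining gene Sry is missing from the Y chromosome and sits as a transgene on chromosome 3. Mothers were C57BL/6J. Every mouse received heat-killed Streptococcus pneumoniae (HKSP, the avirulent strain R36A, which lacks a capsule) into the peritoneal cavity and gave its spleen 7 days later. The groups were XXF (XX females, 5 mice, F1 to F5), XYF (XY females, 4 mice, F6 to F9), XXM (XX males carrying the transgene, 5 mice, 2, 5, 6, 7 and 8) and XYM (XY males carrying the transgene, 5 mice, 12, 13, 15, 16 and 9). No group went without immunization, and the ages of the mice were not given.

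In a B cell, the constant gene nearest the rearranged variable region decides the class of antibody made. A naive B cell splices the same long transcripts to Ighm (IgM) or Ighd (IgD), and class switch recombination can later delete these 2 genes and bring 1 of the genes behind them forward. In mice, interferon gamma directs switching to Ighg2c (IgG2c), the gene that C57BL/6 mice carry in place of Ighg2a. Interleukin 4 directs switching to Ighg1 (IgG1) and Ighe (IgE), and transforming growth factor beta to Igha (IgA) and Ighg2b (IgG2b). Ighg3 (IgG3) is a class raised by bacterial cell wall and capsule sugars. Plasma cells hold far more heavy chain RNA than resting B cells, so a few cells can carry most of it.

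Values are RPKM, the reads of a gene scaled by its length and by the size of the library. Library sizes worked back from the table were 14595054 to 17644855 reads in XXF, 11263753 to 19040738 in XYF, 12119957 to 18099717 in XXM and 15887402 to 19962022 in XYM. Across mice, Ighm held 83053 to 283909 reads, Ighd 2112 to 24469, Ighg3 2425 to 82358, Ighg1 529 to 5916, Ighg2b 2962 to 82532, Ighg2c 1268 to 28652 and Igha 5115 to 63758. Ighe held 0 to 50, so its values move by single reads. The isotype genes together took a mean of 1.13% of the reads in XXF (SD 0.257), 1.95% in XYF (0.294), 1.46% in XXM (0.193) and 1.98% in XYM (0.261).

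Libraries XYF F9 and XYM 9 stood apart from their groups. The summed RPKM of 12 myeloid marker genes was 46337 in XYF F9 while XYF F6 to F8 ranged from 7616 to 16451, and it was 47019 in XYM 9 while the remaining XYM mice ranged from 3319 to 8551. The isotype results are therefore also given with both mice left out, an alternative chosen after seeing the data. No batch was given, the mice of each group stand side by side in the numbering of the libraries, and XXM library titles alone carry an extra tag. An effect of handling the groups separately cannot be told apart from the groups.

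The 8 genes lie on the minus strand of chromosome 12 (GRCm38, mm10), listed here from the variable region side with their Entrez Gene numbers. Ighm (16019) spans chr12:113418826-113422730, Ighd (380797) chr12:113407535-113416324, Ighg3 (380795) chr12:113357442-113361232 and Ighg1 (16017) chr12:113326541-113330523. Ighg2b (16016) spans chr12:113304314-113307933, Ighg2c (404711) chr12:113287389-113288932, Ighe (380792) chr12:113269263-113273248 and Igha (238447) chr12:113256204-113260236.

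The hinge exons of the 4 gamma genes are shown because this exon, which links the antigen-binding arms to the stem of the antibody, differs most in length and sequence among them. Lengths were 48 bases in Ighg3, 39 in Ighg1, 66 in Ighg2b and 63 in Ighg2c, and the capitals mark in-frame cysteine codons, 1 in Ighg3, 4 in Ighg1, 4 in Ighg2b and 3 in Ighg2c. Each sequence is written along the transcript, on the minus strand of chromosome 12 in GRCm38, at chr12:113360529-113360576 (Ighg3), chr12:113329844-113329882 (Ighg1), chr12:113307261-113307326 (Ighg2b) and chr12:113288263-113288325 (Ighg2c).
Ighg3: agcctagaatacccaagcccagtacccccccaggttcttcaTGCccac
Ighg1: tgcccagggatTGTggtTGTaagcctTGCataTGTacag
Ighg2b: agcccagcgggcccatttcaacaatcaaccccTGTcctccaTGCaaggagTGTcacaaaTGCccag
Ighg2c: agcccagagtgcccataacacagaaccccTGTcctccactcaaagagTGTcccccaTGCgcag

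Reads of 51 bases can be told apart between most of these genes. Of the 28 pairs, Ighg2b and Ighg2c alone share stretches of 51 coding bases, in 54 of the 957 such windows of Ighg2b (5.6%) and of the 954 of Ighg2c (5.7%). Their coding sequences were 85.9% identical after alignment, against 74.4% to 77.0% in the other gamma pairs. By exon, Ighg2b and Ighg2c were 87.6% identical in CH1, 77.3% in the hinge, 94.2% in CH2 and 77.7% in CH3. The longest shared run, 78 bases of CH2, is shown because reads inside it could have been assigned to either gene or dropped, and how such reads were counted was not given. Capitals mark the identical run and the lower case bases are the 12 on each side, along the transcript on the minus strand (GRCm38) at chr12:113306857-113306958 (Ighg2b) and chr12:113287857-113287958 (Ighg2c).
Ighg2b: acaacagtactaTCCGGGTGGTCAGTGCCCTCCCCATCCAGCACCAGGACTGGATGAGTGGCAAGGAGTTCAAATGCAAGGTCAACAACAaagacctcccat
Ighg2c: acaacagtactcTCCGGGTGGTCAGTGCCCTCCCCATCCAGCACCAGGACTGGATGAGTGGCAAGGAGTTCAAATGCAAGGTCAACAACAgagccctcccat

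Ighm was the most abundant of the 8 genes in every mouse and the 4th of 14186 genes by mean RPKM. In the order of mice given above, Ighm RPKM was 5384, 7787, 6828, 4092 and 5787 in XXF, 8669, 8529, 10598 and 9589.6 in XYF, 4596, 6129, 4726, 5975 and 5761 in XXM and 5861, 9405, 5667, 7202 and 5439 in XYM. All 4 XYF mice lay above all XXF and all XXM mice, and XYM 13 alone among the XYM mice reached the XYF range. In spleen tissue measured as a whole, fewer cells carrying an RNA cannot be told apart from less of that RNA per cell. Ighd, made by naive B cells, measured 651, 327, 230.2, 558 and 482 in XXF, 186, 385, 563 and 289 in XYF, 328, 561, 787, 829 and 677 in XXM and 1264, 849, 729, 1340.1 and 516 in XYM. XYM held the highest mean, followed by XXM, XXF and XYF, and each group overlapped the next.

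The 4 gamma genes did not share a pattern. Ighg3 RPKM was 169, 131, 421, 125 and 217 in XXF, 898, 449, 1674 and 749.6 in XYF, 1751, 2334, 2696, 2585 and 1583 in XXM and 2177, 2085, 1807, 1974 and 3598 in XYM. Every XXF mouse lay below every XYF mouse, although XXF F3 came near XYF F7, while the 2 male groups overlapped. For Ighg2b the values were 470.4, 535, 396, 139 and 317 in XXF, 1024, 868, 1650.5 and 1531 in XYF, 1094, 1112, 2553, 1814 and 1298 in XXM and 2062, 2562, 3358, 3729 and 2858 in XYM. Again the XXF mice were all below the XYF mice, and XYM lay above XXM except that XXM 6 fell inside the XYM range.

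Ighg2c gave a different order, with 225, 661, 376, 221 and 301 in XXF, 993, 795, 1584 and 1254 in XYF, 104, 163, 155, 73.1 and 227 in XXM and 448, 963, 477, 1189.7 and 334 in XYM. Both XY groups lay wholly above the XX group of the same gonadal sex, and the lowest values of all were in XXM. Ighg1, the scarcest gamma gene by the mean over all mice, measured 100.01, 74.8, 55.4, 20.6 and 58.6 in XXF, 99.8, 162, 155 and 109 in XYF, 125, 120.0, 175, 181 and 85.1 in XXM and 120.1, 151, 107, 144 and 210.0 in XYM. XXF held the 4 lowest Ighg1 values, and XXF F1 alone in that group reached the XYF range.

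Igha and Ighe differed widely among mice of the same group. Igha RPKM was 568, 625, 1162, 449 and 301 in XXF, 998, 709, 826 and 1320.3 in XYF, 405, 259, 489, 972 and 1644 in XXM and 574, 1425, 2679.8, 570.4 and 1392 in XYM. Its highest value, in XYM 15, and its lowest, in XXM 5, were both in males, and all groups overlapped. Ighe was close to absent, with 0.20, 0.92, 0.28, 0.35 and 0.11 in XXF, 0.36, 0.28, 1.88 and 1.03 in XYF, 0.00, 0.21, 0.17, 0.08 and 0.34 in XXM and 0.43, 0.61, 0.90, 0.78 and 0.25 in XYM. It reached an RPKM of 0.5 in 6 mice: XXF F2, XYF F8, XYF F9, XYM 13, XYM 15 and XYM 16.

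**Figure D1:**
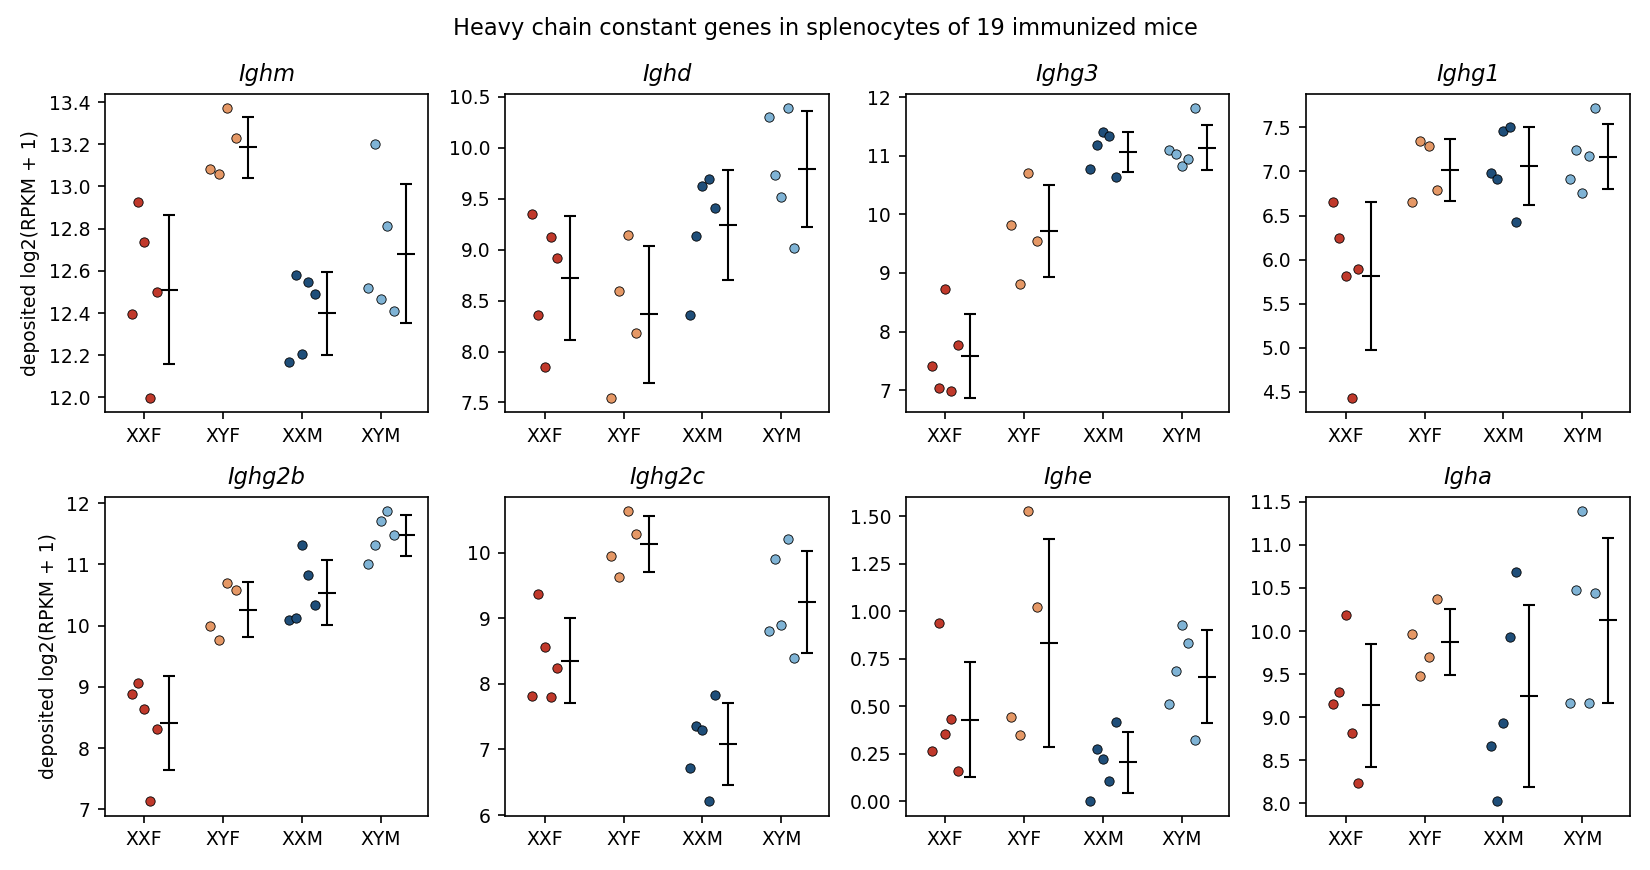
RNA of the 8 heavy chain constant genes (vertical axes, deposited log2(RPKM + 1)) in the groups XXF, XYF, XXM and XYM (horizontal axes). Each point is 1 mouse, and bars show group mean and SD, for example 7.58 and 0.71 for Ighg3 in XXF.

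Order of the groups by mean log2 value was XYM, XXM, XYF, XXF for Ighg3, Ighg1 and Ighg2b. For Ighm, Ighg2c and Ighe it was XYF, XYM, XXF, XXM, and for Igha XYM, XYF, XXM, XXF. Of these neighbors in order, XYF and XXF did not overlap for Ighg3 and Ighg2b, and all other neighbors overlapped. Within the groups the genes themselves, taken by mean RPKM, ranked differently. Behind Ighm, XXF had Igha, Ighd, Ighg2b, Ighg2c and Ighg3, and XYF had Ighg2b, Ighg2c, Igha, Ighg3 and Ighd. In XXM the order was Ighg3, Ighg2b, Igha, Ighd and then, without overlap, Ighg2c and Ighg1. By mean share of the isotype reads, Ighg1 (1.40%) stood above Ighg2c (1.01%) in XXM. XYM had Ighg2b, Ighg3, Igha, Ighd and Ighg2c, and Ighe was last in every group.

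Differences between groups were tested with limma on the log2 values of the 14186 genes that reached an RPKM of 0.5 in 4 mice or more, all 8 isotype genes among them. A gene was called at a Benjamini-Hochberg adjusted p below 0.1 over all genes tested together with a change above 1.5-fold. Log2 differences are the group named first minus the group named second. Exact p values come from every rearrangement of the group labels. They were counted within gonadal sex or, for males against females, within sex chromosome type. For single genes they were not adjusted over genes or comparisons. How many of all genes tested also did not overlap between groups is not given, so a lack of overlap has no background share beside it. Each limma result was repeated under 32 or 33 alternatives: other pseudocounts, filters, scalings and thresholds, array weights (which give noisy libraries less say), limma-voom (which models reads) and each mouse left out.

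The comparison of XXF with XYF asks what a second X chromosome in place of a Y goes with when the gonads are ovaries. XX females held less RNA of the gamma genes, of Ighg3 most of all. limma called 4 of the 8 isotype genes, all lower in XXF, where 196 of the 14186 genes tested were called (1.38%), 101 of them lower (0.712%). Ighg3 had a log2 difference of −2.14 (SE 0.36, adjusted p 0.00716, 4.40-fold) and Ighg2b of −1.85 (SE 0.35, adjusted p 0.0142, 3.62-fold). Ighg2c differed by −1.77 (SE 0.40, adjusted p 0.0408, 3.42-fold) and Ighg1 by −1.21 (SE 0.34, adjusted p 0.0962, 2.31-fold). For Ighg3, Ighg2b and Ighg2c all 5 XXF mice were below all 4 XYF mice, with exact p of 0.0159, 0.00794 and 0.0159, where 0.00794 is the smallest possible. Ighm was not called (log2 difference −0.67, SE 0.27, adjusted p 0.207), although all 4 XYF mice were above all XXF mice (exact p 0.0159). Ighm was called without the variance trend (adjusted p 0.0797) and with limma-voom (0.0843), over a range of 0.0797 to 0.621. The remaining genes were not called either: Ighd 0.35 (SE 0.37, adjusted p 0.611), Ighe −0.41 (SE 0.21, adjusted p 0.296) and Igha −0.74 (SE 0.52, adjusted p 0.444).

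Ighg3 and Ighg2b kept these calls in all 33 alternatives, with log2 differences of −2.44 to −1.81 and −2.10 to −1.54. Ighg2c lost its call without XXF F1 (adjusted p 0.1004), XXF F4 (0.108), XXF F5 (0.109) or XYF F9 (0.158), over a range of 0.0251 to 0.158. Ighg1 lost its call in 23 of 33 alternatives, with adjusted p from 0.0664 to 0.235. Those 23 included leaving out any 1 of XXF F2, F3, F4 or F5, XYF F6, F8 or F9, XXM 2, 5, 6, 7 or 8 or XYM 12, 13, 15 or 16. The count of isotype genes fell to 2 without XXF F4, XXF F5 or XYF F9. With XYF F9 and XYM 9 both left out, Ighg3 (−2.20, adjusted p 0.0134), Ighg2b (−1.75, 0.0549) and Ighg2c (−1.72, 0.0855) were called and Ighg1 was not (−1.28, 0.149). The count over all genes moved to 56 without XYF F9, 86 without XXF F5, 93 without XYF F6, 99 without XXF F4, 119 without XXF F1, 374 without XYF F8, 417 without XYM 9 and 850 without XYF F7.

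The comparison of XXM with XYM asks the same of mice with testes. Here the Ighg2c RNA was lower in XX mice, and the other gamma genes did not pass the test. limma called 1 of the 8 isotype genes, where 420 of the 14186 genes tested were called (2.96%), 259 of them lower (1.83%). Ighg2c had a log2 difference of −2.17 (SE 0.38, adjusted p 0.0121, 4.49-fold), with all 5 XXM mice below all 5 XYM mice (exact p 0.00794). This call was kept in all 33 alternatives (−2.50 to −1.92). Ighg2b was lower by a smaller amount that was not called (−0.94, SE 0.33, adjusted p 0.108, exact p 0.0159), with adjusted p of 0.0789 to 0.262 over the alternatives. It was called with quantile normalization (−1.11, adjusted p 0.0888), with array weights (−0.78, 0.0789), and without XXF F4 (0.0888), XYF F9 (0.0991) or XYM 15 (−0.88, 0.0954). Ighg3 differed by −0.07 (SE 0.34, adjusted p 0.903), with a 95% confidence interval of −0.79 to 0.64, and Ighg1 by −0.11 (SE 0.32, adjusted p 0.848). Ighm (−0.28, adjusted p 0.465), Ighd (−0.55, 0.306), Ighe (−0.45, 0.155) and Igha (−0.88, 0.247) were not called. With XYF F9 and XYM 9 both left out, Ighg2c differed by −2.38 (adjusted p 0.00494) and Ighg2b by −0.94 (0.101). The count over all genes moved to 51 without XXM 2, 64 without XYM 13, 82 without XYM 12, 84 without XXM 5, 88 without XYM 16, 97 without XXM 6, 237 without XXF F5, 643 without XXM 7, 778 without XYM 9 and 1214 without XYM 15.

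**Figure D2:**
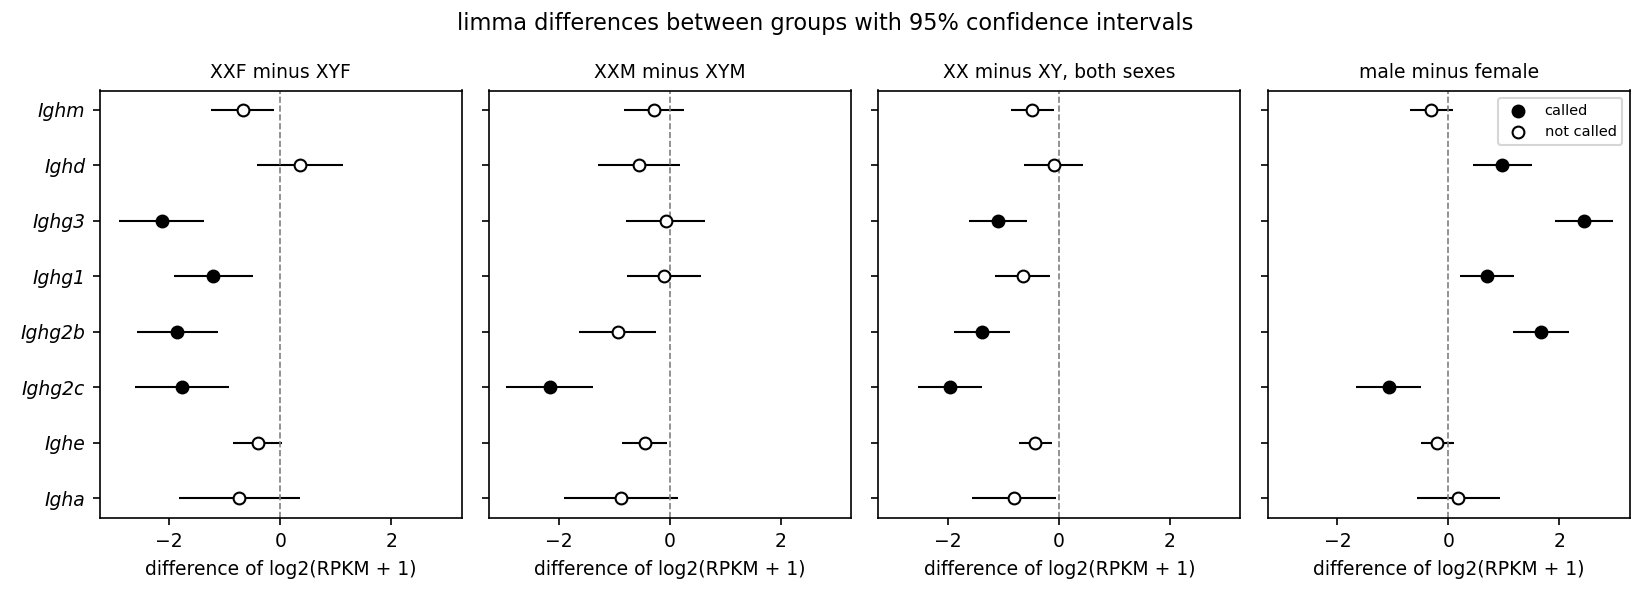
limma differences in log2(RPKM + 1) (horizontal axes) for the 8 genes (vertical axis) in 4 comparisons of XXF, XYF, XXM and XYM. Points are estimates, filled where called, and lines are 95% confidence intervals, for example −2.17 for Ighg2c in XXM minus XYM.

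Taken over both gonadal sexes, XX mice held less gamma RNA than XY mice in 3 of the 4 gamma genes. limma called 3 of the 8 isotype genes between XX and XY, all lower in XX, where 244 of the 14186 genes tested were called (1.72%), 171 of them lower (1.21%). Ighg2c differed by −1.97 (SE 0.28, adjusted p 0.000626, 3.92-fold), Ighg2b by −1.40 (SE 0.24, adjusted p 0.00345, 2.63-fold) and Ighg3 by −1.11 (SE 0.25, adjusted p 0.0240, 2.15-fold). For Ighg2c every XX mouse was below every XY mouse of its own gonadal sex (exact p 6.3e-05). All 3 genes kept their calls in all 32 alternatives, with log2 differences of −2.23 to −1.85, −1.49 to −1.24 and −1.26 to −0.94. For Ighg3 this average joins −2.14 in females and −0.07 in males (adjusted p 0.903), and the interaction below was not called (adjusted p 0.130). Ighm (−0.48, adjusted p 0.148), Ighg1 (−0.66, 0.119), Ighe (−0.43, 0.104), Igha (−0.81, 0.191) and Ighd (−0.10, 0.843) were not called. Ighg1 was called with array weights (adjusted p 0.0836), without XXF F1 (0.0674) or without XYM 15 (0.0782), over a range of 0.0674 to 0.257. Array weights also called Ighm (adjusted p 0.0459, range 0.0453 to 0.572). Ighe was called with pseudocounts of 0.1 (−1.22, adjusted p 0.0812) and 0.5 (−0.65, 0.0928) and with limma-voom (−1.62, 0.0773), over a range of 0.0294 to 0.226, so the size of its difference depended on the pseudocount. With both mice left out, Ighg2c (−2.05, adjusted p 0.00111), Ighg2b (−1.34, 0.0135) and Ighg3 (−1.05, 0.0547) were called. The count over all genes moved to 148 without XYF F9, 408 without XYM 15 and 518 without XYF F7.

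Gamma genes differed between males and females in both directions. Averaged over XX and XY mice, testes went with more Ighg3, Ighg2b, Ighg1 and Ighd RNA and less Ighg2c RNA. limma called 5 of the 8 isotype genes, 4 higher and 1 lower in males, where 1039 of the 14186 genes tested were called (7.32%), 278 of them higher (1.96%) and 761 lower (5.36%). Ighg3 was higher by 2.45 (SE 0.25, adjusted p 5.53e-06, 5.46-fold) and Ighg2b by 1.68 (SE 0.24, adjusted p 0.000142). For both genes every male lay above every female of the same sex chromosome type (exact p 3.15e-05, the smallest possible). Ighd was higher by 0.97 (SE 0.26, adjusted p 0.0101, exact p 0.00469) and Ighg1 by 0.70 (SE 0.23, adjusted p 0.0332, exact p 0.0124). The average for Ighg1 came mostly from XX mice, with mean log2 values of 5.81 in XXF and 7.06 in XXM but 7.02 in XYF and 7.17 in XYM. That for Ighd came more from XY mice, with 8.72 in XXF, 9.24 in XXM, 8.37 in XYF and 9.79 in XYM, and neither interaction was called. Ighg2c was lower in males (−1.08, SE 0.28, adjusted p 0.00872, 2.11-fold, exact p 0.00236). Ighm (−0.31, adjusted p 0.216), Ighe (−0.20, 0.294) and Igha (0.18, 0.727) were not called. Ighg3, Ighg2b, Ighd and Ighg2c were called in all 32 alternatives, and Ighg1 in all but 1: without XXF F4 its difference of 0.53 was under 1.5-fold. With both mice left out, Ighg3 (2.34, adjusted p 1.84e-05), Ighg2b (1.73, 0.000273), Ighd (1.04, 0.00808), Ighg1 (0.59, 0.0752) and Ighg2c (−0.95, 0.0191) were called.

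Scaling bears on these values, and why it does was not tested. Scaling to genes outside the immunoglobulin loci moved the median difference of all genes to 0.16 for males against females, −0.10 for XXM against XYM and 0.16 for the interaction described below. It also turned the split of called genes in males against females to 738 higher and 477 lower. Called genes fell from 420 to 201 in XXM against XYM (147 lower), from 196 to 129 in XXF against XYF (59 lower), from 244 to 198 in XX against XY (149 lower) and from 12 to 0 in the interaction. Relative to that median, Ighg3 was higher in males by 2.47, Ighg2b by 1.70, Ighd by 0.99 and Ighg1 by 0.72, and Ighg2c differed by −1.06. In XXM against XYM, Ighg2c relative to the median was at −2.20 and Ighg2b at −0.97. Under the 3 scalings tried, no called isotype gene changed direction. Ighm, which was not called, turned to 0.13 in males against females with quantile normalization.

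Whether the XX to XY difference itself differs between females and males was tested as an interaction, the difference in females minus the difference in males. limma called 0 of the 8 isotype genes, where 12 of the 14186 genes tested were called (0.0846%). At an unadjusted p below 0.05 the counts were 2 isotype genes and 2979 genes, and limma-voom on reads worked back from the table called 0 isotype genes, with 2 at an unadjusted p below 0.05. Of the 8 genes Ighg3 had the largest interaction (−2.06, SE 0.50, adjusted p 0.130), followed by Ighg1 (−1.10, SE 0.47, adjusted p 0.193) and Ighg2b (−0.92, SE 0.48, adjusted p 0.273). Ighd (0.90, adjusted p 0.305), Ighg2c (0.39, 0.687), Ighm (−0.39, 0.543), Ighe (0.05, 0.937) and Igha (0.14, 0.923) were further from the threshold. Ighg3 passed with array weights (−2.46, adjusted p 0.0225) and without XXF F3 (−2.35, 0.0523), XYF F8 (−1.74, 0.0759), XYM 15 (−1.98, 0.0849) or XYM 9 (−2.23, 0.0443), over a range of 0.0225 to 0.256. With XYF F9 and XYM 9 both left out Ighg3 was also called (−2.29, adjusted p 0.0803). Ighg1 passed with array weights (−1.38, adjusted p 0.0799, range 0.0799 to 0.315) and without XYM 9 (−1.24, 0.0999). Ighg2b passed with array weights (−1.32, adjusted p 0.0926, range 0.0926 to 0.431). The count over all genes moved to 0 without XXF F1, F2 or F5, XYF F6 or XYM 12 or 16, 1 without XXM 6, 3 without XXF F4, 7 without XYF F9, XXM 2 or XYM 13, 749 without XYF F8, 808 without XYM 15, 1197 without XXF F3 and 1695 without XYM 9.

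As shares of the isotype RNA, Ighm took most in females and less in males. Its mean share of the summed RPKM of the 8 genes was 74.1% in XXF (SD 2.87), 66.5% in XYF (4.09), 50.4% in XXM (6.43) and 44.3% in XYM (6.65). The 4 gamma genes together ran the opposite way, with 12.1% in XXF (SD 1.86), 24.2% in XYF (4.35), 37.1% in XXM (7.16) and 40.5% in XYM (5.94). Ighg3 alone made up 2.62% of the sum in XXF, 6.41% in XYF, 20.2% in XXM and 15.8% in XYM. Ighg2b went from 4.48% in XXF and 8.81% in XYF to 14.3% in XXM and 19.4% in XYM. Ighg2c was at 4.29% in XXF, 8.03% in XYF, 1.34% in XXM and 4.40% in XYM. Ighg1 shares were 0.759%, 0.944%, 1.27% and 0.981% in the same order of groups. Igha took 7.60%, 6.87%, 6.77% and 8.81%, and Ighd 6.13%, 2.48%, 5.73% and 6.36%. Ighe stayed at or under 0.011% in each mouse. The sum of the 8 genes was 8049 in XXF (SD 1798), 14165 in XYF (2282), 10874 in XXM (1519) and 15054 in XYM (1867).

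**Figure D3:**
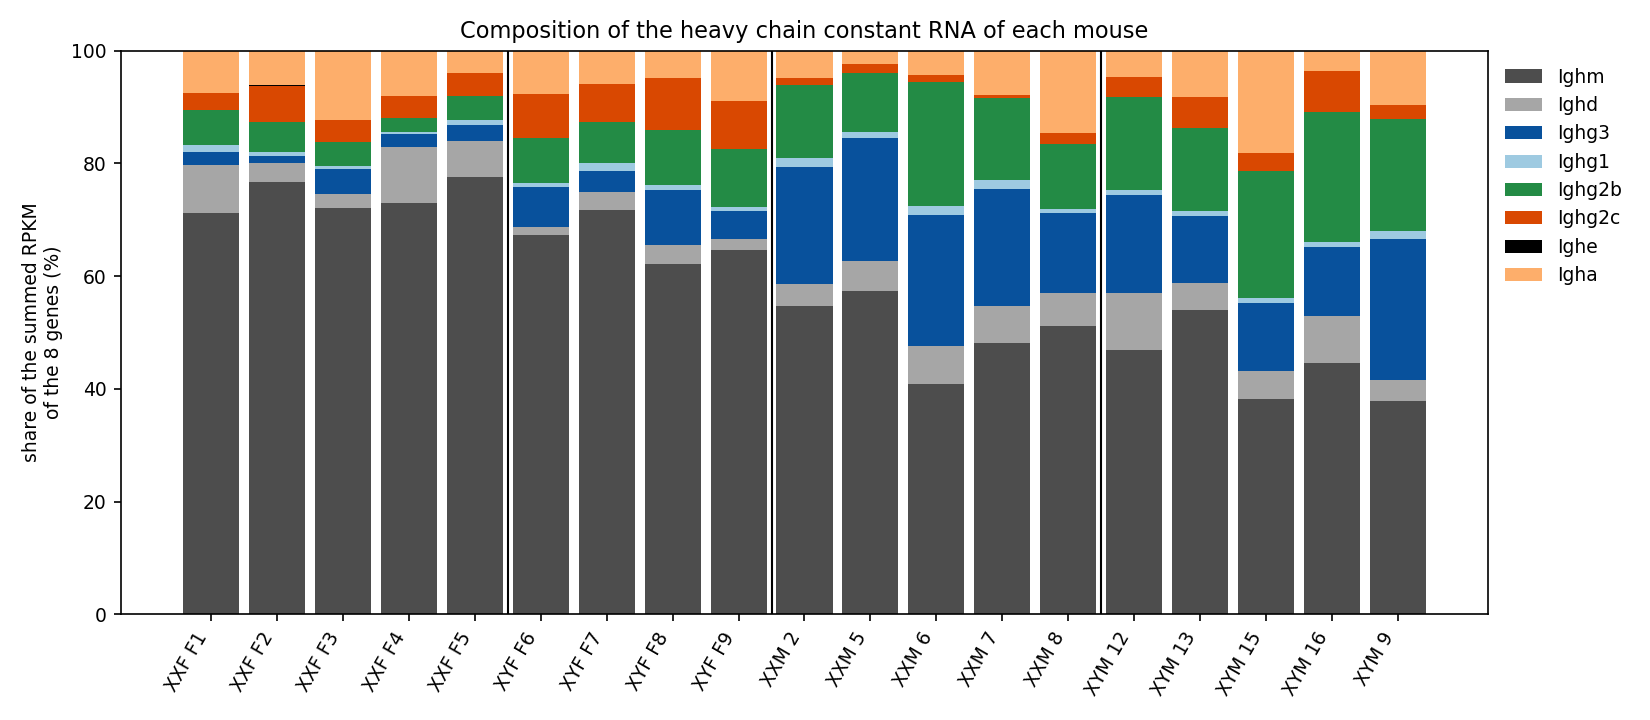
Share of the summed RPKM of the 8 heavy chain constant genes (vertical axis, percent) in each of the 19 mice (horizontal axis), grouped as XXF, XYF, XXM and XYM. Each bar is 1 mouse, and Ighm averages 74.1% of the sum in XXF.

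Ratios within a mouse do not depend on the library scaling. Each was tested by exact permutation with Benjamini-Hochberg adjustment over 28 tests, 7 ratios in 4 comparisons, and was called at an adjusted p below 0.05. The log2 ratio of Ighg3 to Ighm was −4.99, −5.89, −4.02, −5.02 and −4.73 in XXF, −3.27, −4.24, −2.66 and −3.68 in XYF, −1.39, −1.39, −0.81, −1.21 and −1.86 in XXM and −1.43, −2.17, −1.65, −1.87 and −0.60 in XYM. Every male had a higher ratio than every female, and the highest XXF mouse, F3, overlapped the lowest XYF mouse, F7. By RPKM, the group means stand for 1 Ighg3 per 30.4 Ighm in XXF, 11.03 in XYF, 2.52 in XXM and 2.91 in XYM. For Ighg2c to Ighm the values were −4.58, −3.56, −4.18, −4.20 and −4.26 in XXF, −3.13, −3.42, −2.74 and −2.93 in XYF, −5.45, −5.23, −4.92, −6.33 and −4.66 in XXM and −3.71, −3.29, −3.57, −2.60 and −4.02 in XYM. All XXM mice lay below all mice of the other groups, and all XYF mice lay above all XXF mice.

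Between XXF and XYF, 3 of 7 ratios were called, all lower in XXF: Ighg3/Ighm (−1.47, adjusted p 0.0476), Ighg2b/Ighm (−1.18, 0.0342) and Ighg2c/Ighm (−1.10, 0.0342). In each of the last 2 all XXF mice were below all XYF mice. All 3 kept their direction in all 22 alternatives, with Ighg3/Ighm at −1.73 to −1.20 (adjusted p 0.0357 to 0.114), Ighg2b/Ighm at −1.33 to −0.99 (0.0342 to 0.0769) and Ighg2c/Ighm at −1.25 to −0.99 (0.0342 to 0.0615). From group medians 0 ratios were called, and also without any 1 of XXF F1, F2, F3, F4 or F5, where 4 against 4 mice allow an exact p of 0.0286 at the lowest. The count was 1 without XYF F8 or XYF F9 or with XYF F9 and XYM 9 both left out. The Ighg3/Ighm call was lost in 17 of 22 alternatives, also without XYF F6. Losses without XXM 2, 6 or 7 or XYM 12, 13, 15 or 16 came from the adjustment alone, since leaving out a male leaves this difference at −1.47. Between XXM and XYM, 2 ratios were called: Ighg2c/Ighm (−1.88, adjusted p 0.0222, all XXM below all XYM) and Ighg2c/Ighg1 (−2.06, 0.0342). Ighg2c/Ighg1 lost its call from group medians and without XXM 2, 6 or 7 or XYM 12, 13, 15 or 16, at −2.41 to −1.73 over all alternatives (adjusted p 0.0342 to 0.0952). Ighg2c/Ighm lost its call from group medians (−1.66, adjusted p 0.0952).

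Over both gonadal sexes XX mice had lower Ighg2c/Ighm (−1.49, adjusted p 0.000588), Ighg2b/Ighm (−0.92, 0.00823) and Ighg2c/Ighg1 (−1.31, 0.0210). The first 2 kept their calls in all 22 alternatives, and Ighg2c/Ighg1 in all but the group medians (adjusted p 0.0532, range 0.00882 to 0.0532). Males had higher Ighg3/Ighm (2.76, adjusted p 0.000441), Ighg2b/Ighm (1.99, 0.000441), Ighd/Ighm (1.28, 0.00857) and Ighg1/Ighm (1.01, 0.00511). They had lower Ighg2c/Ighm (−0.77, adjusted p 0.0132) and Ighg2c/Ighg1 (−1.78, 0.00511). Leaving out any 1 mouse changed neither count, 3 for XX against XY and 6 for males against females. Group medians gave 2 and 5, with Ighd/Ighm in males against females at 1.15 (adjusted p 0.0532). Igha/Ighm was not called in any comparison, with group means of −3.38 in XXF, −3.31 in XYF, −3.15 in XXM and −2.55 in XYM.

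Ighg2c and Ighg1 are the classes that interferon gamma and interleukin 4 direct. Their log2 ratio was 1.16, 3.13, 2.74, 3.37 and 2.34 in XXF, 3.30, 2.29, 3.35 and 3.51 in XYF, −0.27, 0.44, −0.17, −1.30 and 1.41 in XXM and 1.89, 2.66, 2.14, 3.04 and 0.67 in XYM. By RPKM, Ighg2c exceeded Ighg1 in all mice of XXF, XYF and XYM and in XXM 5 and 8, whereas XXM 2, 6 and 7 had more Ighg1. RPKM divides by the counted length, 1478 bases for Ighg1 and 1007 for Ighg2c. By reads, XXM 5 also had more Ighg1 (2858) than Ighg2c (2640), so the order of these genes in XXM depends on the length correction. By group means of this RPKM ratio, Ighg2c was 5.84-fold Ighg1 in XXF, 8.65-fold in XYF, 1.01-fold in XXM and 4.23-fold in XYM.

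**Figure D4:**
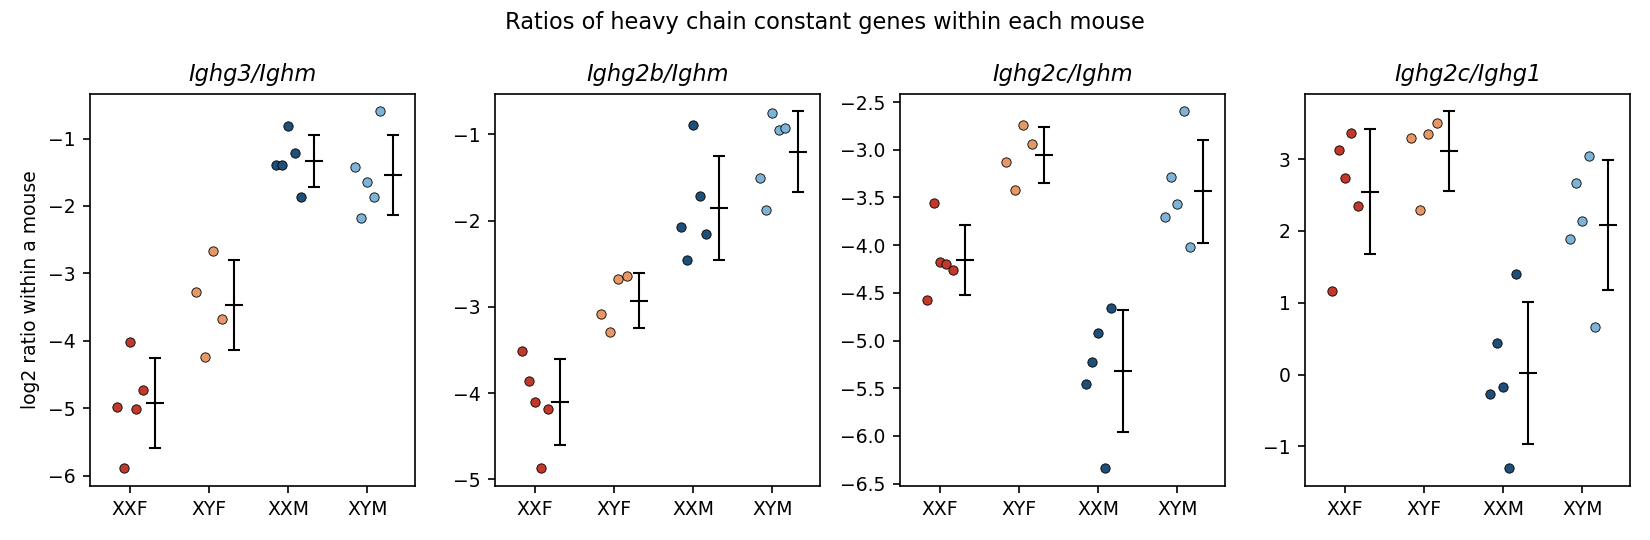
Log2 ratios of Ighg3, Ighg2b and Ighg2c to Ighm and of Ighg2c to Ighg1 (vertical axes) in XXF, XYF, XXM and XYM (horizontal axes). Each point is 1 mouse, and bars show group mean and SD, for example 0.02 and 0.99 for Ighg2c/Ighg1 in XXM.

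The isotype genes varied more among mice of 1 group than most genes did. The SD within groups was 0.84 for Igha, 0.65 for Ighg2c, 0.60 for Ighd, 0.57 for Ighg3, 0.55 for Ighg1 and 0.55 for Ighg2b, against a median of 0.23 over the 14186 genes tested. Igha stood at percentile 98.0 of that set and Ighg2b at 92.5. Ighm was steadier, with an SD of 0.28 (percentile 64.9), and Ighe had 0.33 (75.3).

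Each isotype gene was also set beside the genes whose log2 values it followed most closely over the 19 mice, as a description with no p value. Ighd followed Cd22 (r 0.988), an inhibitory receptor of B cells, Arid3b (0.981), a DNA-binding protein, and Trp53i11 (0.979), a p53-induced gene, as well as the light chain segment Igkj3 (0.958). Ighm went with Chst1 (0.859), a sulfotransferase, Fut1 (0.814), a fucosyltransferase, Kdelr3 (0.799), a retrieval receptor of the secretory pathway, and Igkv14-111 (0.854). Ighg3 went with an unnamed gene (Entrez 100504046, 0.889), Pon3 (0.877), a paraoxonase, Trim46 (0.86), a microtubule protein, and Igkv1-110 (0.863). Nearest to Ighg2b were Sel1l (0.898), which clears misfolded secretory proteins, Bhlha15 (0.889), a factor of secretory cells, Eea1 (0.865), an endosome tether, and Igkv1-110 (0.782). Ighg1 had lower r, with Pon3 (0.758), Xbp1 (0.739), a plasma cell factor, Bhlha15 (0.707) and Ighj2 (0.685). Ighg2c went with Nuggc (0.888), a GTPase of germinal center B cells, Chst1 (0.857), Gm4841 (0.842), a predicted GTPase, and Ighv8-8 (0.85). Ighe went with Pipox (0.946), a peroxisomal oxidase, Rflna (0.897), an actin regulator, S1pr2 (0.897), a germinal center receptor, and Igkv6-23 (0.826). Igha had Eef1akmt3 (0.734), a methyltransferase, Pkn3 (0.725), a kinase, St6galnac6 (0.702), a sialyltransferase, and Ighv1-19 (0.642). Differences between groups enter these r values. With group means taken out, r with the same genes was 0.937 to 0.978 for Ighd, 0.766 to 0.945 for Ighe, 0.561 to 0.709 for Ighm, 0.521 to 0.696 for Igha and 0.484 to 0.676 for Ighg2c. It was lower for Ighg2b (0.154 to 0.603), Ighg1 (0.231 to 0.458) and Ighg3 (0.344 to 0.419), with 0.154 for Ighg2b and Igkv1-110.

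Among the isotype genes, deviations from the group means were compared in all 28 pairs, as a description. The highest r over the 19 mice was 0.705 for Ighm and Ighg2c (rho 0.67), and 0.683 without the 2 farthest mice. Ighg1 and Ighg2b had an r of 0.685, which fell to 0.407 without the 2 farthest mice. Ighg2c and Ighe had an r of 0.661 (rho 0.675, and r 0.581 without the 2 farthest), with the few reads of Ighe in mind.

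Genes of the steps that lead to switched antibody were read as lists written from general knowledge. The class switch machinery cuts and rejoins the DNA between constant genes, and its list held 26 genes, all tested, the most abundant Ywhaz, an adaptor protein, at a mean RPKM of 91.1. Mean summed RPKM of this list was 592 in XXF (SD 22.8), 604 in XYF (28.1), 597 in XXM (16.99) and 602 in XYM (18.9), and all groups overlapped. The median log2 difference of its genes between XX and XY mice was −0.01, and 0.03 for all genes tested. Single genes of this list are not reported here.

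The list of cytokines, receptors and factors that direct switching had 31 of 33 genes tested, with Tgfb1, the factor that directs Igha, most abundant (mean RPKM 135). Of all genes tested, 1.38% were called in XXF against XYF (0.712% lower) and 0.0846% in the interaction. Called lower were 1.83% in XXM against XYM, 1.21% in XX against XY and 5.36% in males, where 1.96% were higher. Nothing is read from the counts below about the list. In XX against XY mice, Il10, a cytokine that promotes plasma cells, was lower (−0.83, adjusted p 0.0229, kept with each mouse left out). Among genes higher in males with each mouse left out were Tnfrsf13c (0.75) and Tnfrsf13b (0.70), receptors for B cell survival factors, Bcl6 (0.75), a germinal center factor, and Il5ra (0.71), a cytokine receptor. Cd40lg, the T cell signal for switching, was lower in males in the same way (−0.85, adjusted p 0.000466). Cd40lg is X-linked, as the paper states for CD40L in patients. The T cell markers below had median log2 differences of −1.24 in males, 0.39 in XXF against XYF and 0.78 in the interaction. Their part in the Cd40lg values was not tested. In XXF against XYF, Cd40lg (0.87) and Smad3 (0.60), which relays transforming growth factor beta signals, were higher, a count that was 0 without XXF F1, F4 or F5 or XYF F6 or F9 and 4 without XYF F7, and Il10 was lower (−1.03), a count that was 0 without XXF F1, F2, F4 or F5 or XYF F6, F8 or F9 and 2 without XYM 9. In XXM against XYM, Il21, a helper T cell cytokine, was lower (−1.01, adjusted p 0.0756), a call that was lost without XXM 2 (adjusted p 0.188), XXM 5 (0.113), XXM 6 (0.112), XYM 12 (0.141), XYM 13 (0.186) or XYM 16 (0.164), over a range of 0.00508 to 0.188. Il21 was also lower in XX than XY mice (−0.72, adjusted p 0.0660), and with Il10 this count of 2 was 1 without XXF F3 or F5, XYF F8 or F9, XXM 2 or XYM 13 or 16. Cd40lg was the 1 list gene called in the interaction (1.45, adjusted p 0.0877), and this count was 0 without XXF F1, F2, F4 or F5, XYF F6, F7 or F9, XXM 5, 6, 7 or 8 or XYM 12, 13 or 16, 2 without XYF F8 or XYM 15, 3 without XXF F3 and 5 without XYM 9.

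In the list of antibody partners (10 genes, Igkc most abundant at 22724), Iglc3 (0.63), a light chain, and Cd79a (0.60), a part of the B cell receptor, were higher in males, and this count was 0 without XYF F6 or F9 and 1 without XXF F3, XXM 7 or XYM 12, 15 or 16. Over all genes tested, 1.96% were called higher in males. Of 20 genes for secretory heavy chain RNA and antibody secretion, Hsp90b1, a chaperone, being most abundant (508), Derl3, which clears misfolded proteins, was lower in XXF than XYF (−0.78, adjusted p 0.0473) and in XX than XY (−0.62, 0.0117). Its count was 0 without XXF F4 or F5 or XYF F6 or F9 in the first and 0 without XXF F4 or F5, XYF F8 or XYM 16 in the second comparison. Over all genes tested, 0.712% were called lower in the first and 1.21% in the second, and nothing is read from these counts about either list.

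Marker lists show which cells were in the libraries in which the isotype RNA was measured. Their part in the isotype results was not tested. Counts here are of genes called with all 19 mice and again with each mouse left out, a rule chosen after seeing the data. The share of all genes that this rule calls was not counted. With all 19 mice alone, 1.96% of all genes tested were called higher and 5.36% lower in males. Shares called in either direction were 1.38% in XXF against XYF, 2.96% in XXM against XYM and 1.72% in XX against XY. Summed RPKM of 13 plasma cell markers, Jchain most abundant (mean RPKM 957), was 1108, 1872, 1836, 988 and 1299 in XXF, 2102, 1849, 2284 and 1641 in XYF, 1752, 1750.5, 1372, 1724 and 1589 in XXM and 1449, 1985, 2138, 1543 and 1926 in XYM. XXF F1, F4 and F5 were lowest, and by that rule 1 of 13 genes was counted, Irf4, a plasma cell factor, higher in males (0.73, adjusted p 0.000786). Nothing is read from this count about the list. With all 19 mice Derl3 and Tnfrsf17, a plasma cell survival receptor (−0.92, adjusted p 0.0600), were also called, lower in XXF than XYF. Tnfrsf17 was lower in all 33 alternatives (−1.14 to −0.73) and lost its call in 8, without XXF F1, F4 or F5 or XYF F6 or F9, with both mice left out, from 2 groups alone and at an adjusted p of 0.05 (range 0.0393 to 0.180). For 12 B cell markers (Cd79b, 865) the sums were 3502, 3286, 2873, 3289 and 3207 in XXF, 1826, 2958, 3080.4 and 1566 in XYF, 4613, 5031, 4542, 4585 and 4230.5 in XXM and 4371, 3621, 4437, 4161 and 2681 in XYM. Males were mostly higher, with 6 of 12 genes called, among them Ebf1 (0.90), Cd22 (0.82), Fcer2a (0.78) and Cr2 (0.70). With all 19 mice alone 10 of 12 were called higher, where 1.96% of all genes tested were.

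Marginal zone B cells answer early to blood-borne bacteria. Their 8 markers (Mzb1, 202) summed to 550.2, 576, 541, 495 and 503 in XXF, 402, 478, 476 and 369 in XYF, 783, 736, 623, 627 and 524 in XXM and 524, 520.0, 622, 475 and 476 in XYM. All XXF mice were above all XYF mice, and in that comparison 2 of 8 were called, S1pr3 (1.02), a lipid receptor that holds these cells in place, and Cr2 (0.79), a complement receptor. The count was 4 of 8 with no mouse left out, where 1.38% of all genes tested were called in either direction. Cr2 is also in the B cell list and Mzb1 in the plasma cell list. The 10 germinal center B cell markers (Mki67, 37.9, also in the proliferation list) summed to 113, 117, 99.9, 109.6 and 83.7 in XXF, 152, 112, 182 and 232 in XYF, 60.7, 69.1, 97.6, 85.9 and 105 in XXM and 109, 132, 109.6, 135 and 139 in XYM. All XYM mice were above all XXM mice, and in that comparison 1 of 10 was called lower in XXM, the transcription factor Mybl1 (−1.33, adjusted p 0.0130). With no mouse left out 4 of 10 were called lower in XXM, where 1.83% of all genes tested were. XX against XY mice had Mybl1 lower (−0.95), and males had Rgs13 (−0.83), a signaling regulator, lower and Bcl6 higher.

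Summed RPKM of 12 T cell markers (Cd3g, 168) was 1321, 1762, 1556, 1319.8 and 1577 in XXF, 1318, 1656, 1242 and 640.5 in XYF, 562, 594, 513, 413 and 414 in XXM and 648, 594, 792, 704 and 384 in XYM. Females were higher apart from XYF F9, and 11 of 12 genes were called lower in males, by most Cd8b1 (−1.70), Cd3g (−1.44), Cd3d (−1.43), Cd8a (−1.35) and Lat (−1.35). That count was also 11 of 12 with no mouse left out, where 5.36% of all genes tested were called lower in males. The 10 natural killer cell markers (Gzma, 201) summed to 582, 667, 634, 741 and 721 in XXF, 284, 416, 303 and 171 in XYF, 567, 483, 553, 540.1 and 488 in XXM and 314, 309, 457, 258 and 146 in XYM. Within each gonadal sex all XX mice were above all XY mice, and 7 of 10 genes were called in XX against XY, by most Gzma (1.57), Klra8 (1.28), Klrb1c (1.19), Klre1 (1.17) and Ncr1 (1.10). Before any mouse was left out, 8 of 10 were called higher in XX, where 1.72% of all genes tested were called in either direction.

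Sums of 12 myeloid markers (S100a9, 4978) were 5329.8, 4285, 5517, 6086 and 5107 in XXF, 11947, 16451, 7616 and 46337 in XYF, 6490.4, 5977, 6536, 5037 and 4381 in XXM and 3319, 8551, 4204, 3627 and 47019 in XYM. In males against females 2 of 12 were called lower, Cd14 (−0.92) and Fcgr1 (−0.91), and in XX against XY Ly6c2 was (−0.75), a call lost with XYF F9 and XYM 9 both left out (−0.48, adjusted p 0.0208, under 1.5-fold). The male count was also 2 of 12 with no mouse left out, where 5.36% of all genes tested were called lower. In XX against XY it was then 2 of 12, where 1.21% of all genes tested were called lower. For 10 of 12 erythroid markers listed in the table (Hbb-bs, 10148) the sums were 15967, 24331, 36154, 28380.4 and 20503 in XXF, 57399.9, 23789, 19218 and 42862 in XYF, 15346, 12067, 9267, 8949 and 18248 in XXM and 2855, 8535, 6238, 1962 and 18540.0 in XYM. Although red cells were lysed, these sums were mostly higher in females, and 9 of 10 genes were called lower in males, among them Hba-a1 (−1.88), Hbb-bs (−1.81), Hbb-b1 (−1.64) and Hba-a2 (−1.53). The 12 proliferation genes (Pcna, 94.1) summed to 349.8, 299, 327, 287 and 252 in XXF, 755, 262, 462 and 815 in XYF, 209, 195, 267, 248 and 312 in XXM and 209, 289, 222, 226 and 633 in XYM. XYF F6, XYF F9 and XYM 9 were highest, and 3 of 12 were called lower in males: Birc5 (−1.01), Rrm2 (−0.92) and Cdk1 (−0.86). Counts with no mouse left out were 10 of 10 erythroid and 7 of 12 proliferation genes, again where 5.36% of all genes tested were called lower in males.

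**Figure D5:**
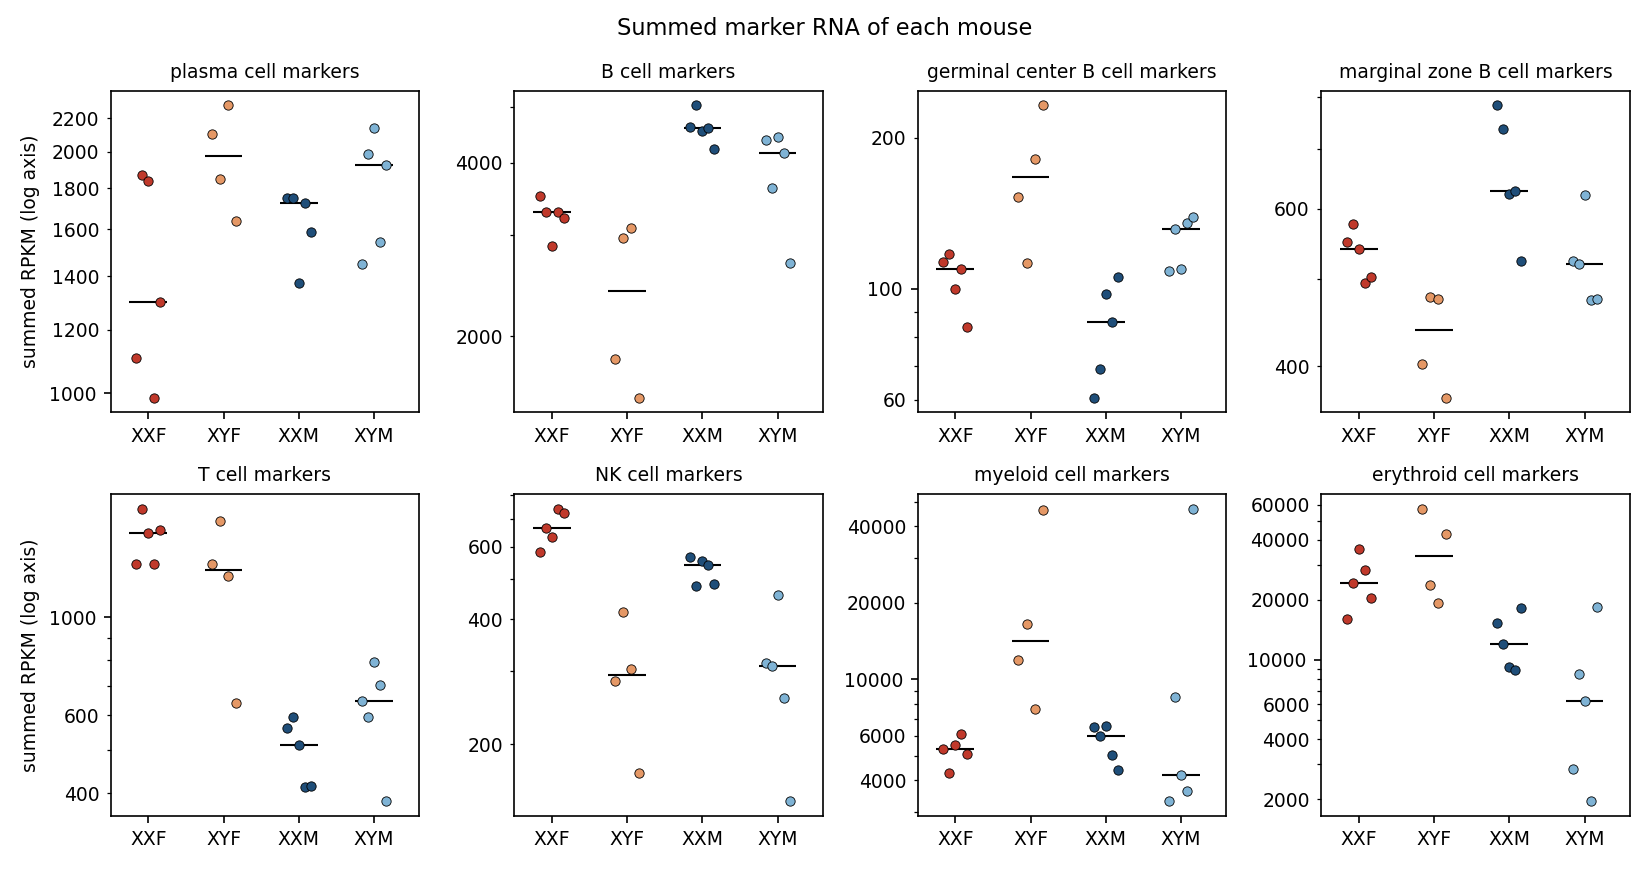
Summed RPKM of 8 lists of cell markers (vertical axes, log scale) in XXF, XYF, XXM and XYM (horizontal axes). Each point is 1 mouse and each line a group median; the myeloid sum reaches 47019 in XYM 9.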

How the data were processed

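RNA of spleen cells from 19 immunized FCG mice was sequenced on an Illumina HiSeq, with 2 read ends of 51 cycles. With Subread and featureCounts the authors mapped and counted reads on mm10, and they deposited log2(RPKM + 1) for 27179 genes. Tool versions, gene annotation, strand setting and the handling of reads that fit several genes were not given, and 2 library kits were named. Reads behind the RPKM were worked back for 21317 genes from the smallest steps between values; 21315 came out whole in every mouse within 0.005. The libraries held 11263753 to 19962022 such reads.

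Differences were tested with limma 3.58.1 in R 4.3.3 on the deposited log2 values, with 1 mean per group and a trended variance prior. Tables, exact permutation tests of isotype genes and ratios, and figures were made with scipy 1.17.1, pandas 2.3.3, matplotlib 3.10.9 and numpy 2.4.6 in Python 3.11.15. Hinge exons came from GENCODE M21. Alternatives to this included a filter at an RPKM of 1, no filter, pseudocounts of 0.1 and 0.5, median ratio rescaling, quantile normalization and scaling to genes outside the immunoglobulin loci. Others were 2 groups alone, no trend, array weights, an adjusted p of 0.05, no fold threshold and each mouse left out. Ratios were also taken with a pseudocount of 0.1 and from group medians, and shares by reads and without Ighd. limma-voom on the reads and leaving out both XYF F9 and XYM 9 were chosen after seeing the data.

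The isotype genes and the 13 lists of genes were chosen with earlier results of these data known. Genes were named by rule: the 8 isotype genes always, some called genes of the lists (at most 5 per list and comparison), the most abundant gene of each list, and for each isotype gene the 3 genes of highest r outside the immunoglobulin loci with 1 segment gene. No list test was run.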

Additional observations from a re-analysis of the deposited data

Results flagged for a closer look

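Of 148 groups of values examined for a mouse far from the rest of its group, 5 had one, and chance flags about 1 in 20 groups. XYM 9 stood out for the log2 value of Ighg3 (0.729, the gap to the nearest mouse as a share of the range of its group), the Ighg1/Ighm ratio (0.721), the myeloid marker sum (0.88) and the proliferation sum (0.813). XXM 8 stood out for the share of Ighg3 (0.731). Cd40lg had an interaction of 1.45 in limma, called with all mice and lost without any 1 of 14 mice, as listed with the cytokine genes. Its size stayed at 1.35 to 1.64 with each mouse left out. With XYF F9 and XYM 9 both left out limma called it (1.56, adjusted p 0.00949). Without XYF F9 and XYM 9 the calls of Ighg3, Ighg2b and Ighg2c in the 4 main comparisons were the same. With 4 or 5 mice per group, handling batches not given and no unimmunized mice, nothing here separates an effect of sex chromosomes or gonads from one of handling.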

How the results depend on the processing

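Counts of called isotype genes were the same for males against females in every alternative except 4 with XXF F4 left out. Leaving out each mouse in turn gave 2 to 4 for XXF against XYF, 1 to 2 for XXM against XYM, 3 to 4 for XX against XY, 4 to 5 for males against females and 0 to 2 for the interaction. The count for XXM against XYM was 2 with quantile normalization and 2 with array weights. Array weights gave 5 for XX against XY and 3 for the interaction, where over all genes they called 332 in place of 244 and 1911 in place of 12. The interaction count was 1 with both XYF F9 and XYM 9 left out (782 over all genes). Called ratios numbered 0 to 3 in XXF against XYF, 1 to 2 in XXM against XYM, 3 to 3 in XX against XY and 6 to 6 in males against females with each mouse left out. Group medians gave 0 for XXF against XYF, 0 for XXM against XYM, 2 for XX against XY and 5 for males against females, and leaving out both mice gave 1 for XXF against XYF.

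Values that changed direction were not called in either setting. With quantile normalization Ighm went to 0.13 in males against females and 0.0343 in the interaction. Array weights turned Ighg3 in XXM against XYM to 0.0755, and the interactions of Ighe to −0.12 and Igha to −0.23. Group medians turned Ighg1/Ighm in XX against XY to 0.0119 and Igha/Ighm in XXF against XYF to 0.11. With both mice left out, Ighg3 (0.0947) and Ighg1 (0.0332) in XXM against XYM and Igha/Ighm in XXF against XYF (0.0853) turned. With each mouse left out, Ighd in XX against XY ran from −0.23 to 0.0333, Ighg3 in XXM against XYM from −0.16 to 0.0947 and Ighg1 from −0.22 to 0.0524. The interactions of Ighe ran from −0.12 to 0.28 and of Igha from −0.17 to 0.50, and Igha/Ighm in XXF against XYF from −0.27 to 0.16. Ighe could not be tested with a filter at an RPKM of 1. By reads in place of RPKM, the Ighm share in XXF was 78.9% and in XYF 71.8%, the Ighd share in XXM 4.31% and the Ighg2c share in XYF 5.87%.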
